A study of Boehmeria nivea with 2 samples.

Results

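The genes described here are those of phenylpropanoid and lignin synthesis in ramie leaves, from phenylalanine ammonia-lyase to the laccases and dirigent proteins that act on the finished lignin monomers. They were chosen by name. A unigene, that is an assembled transcript cluster standing for 1 gene or a fragment of one, was a member when its best Swiss-Prot hit was called phenylalanine ammonia-lyase, trans-cinnamate 4-monooxygenase, 4-coumarate--CoA ligase, cinnamoyl-CoA reductase, cinnamyl alcohol dehydrogenase, caffeoyl-CoA O-methyltransferase, shikimate O-hydroxycinnamoyltransferase, ferulate hydroxylase, laccase, dirigent protein or another of the listed enzymes of the pathway. Of 46533 unigenes, 17948 had a Swiss-Prot name and 109 were members. They fell into 11 groups by step, of which 10 are described below, and no unigene carried a ferulate hydroxylase name. The names are best hits in other species, so a name is a likeness and not a tested activity.

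Ramie (Boehmeria nivea) is a perennial fiber crop of the nettle family, and the ramie moth is a caterpillar pest of its leaves. The plants were 30-day-old seedlings of cultivar Chuanzhu No.8, raised from shoot cuttings, and both groups shared cultivar, tissue and sampling times. For the challenged group (CH), 2 second-stage larvae were set on leaf 4 from the shoot tip, and the topmost 2 leaves, which the larvae had not damaged, were taken 12, 24, 48 and 72 h later. The control group (CK) was sampled at the same times, and its label calls it mock-challenged while the protocol calls it unchallenged. Leaves of 5 plants were pooled at each time and RNA of the 4 times was mixed in equal parts, so each group was 1 paired-end RNA-seq library and early and late changes were averaged.

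In plants generally, this pathway turns phenylalanine into p-coumaroyl-CoA, the shared precursor of flavonoids, chlorogenic acids and lignin, and then into the monolignols that peroxidases and laccases polymerise in the cell wall. It supplies much of the phenolic matter that makes leaf tissue hard to digest, and its first enzyme, phenylalanine ammonia-lyase, is a common marker of wounding and pathogen attack.

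The CK library held 17800062 counted reads and the CH library 26938918. Photosynthesis genes of leaf cells (the small subunit of Rubisco, Rubisco activase, chlorophyll-binding and oxygen-evolving proteins, 90 unigenes in all) took 8.75% of the reads in CK and 3.73% in CH, so leaf genes were abundant in both libraries. Of 66 of these with at least 10 reads, 19 were called lower in CH (28.8%) and 0 higher. Among all unigenes with as many reads, 7.71% were called lower and 4.54% higher, by the rule given below. Of the 90, 9 had no read in CK and 11 none in CH. Unigenes with a fungal or oomycete best hit took 0.135% and 0.240% of the reads. Of 260 of these with at least 10 reads, 117 were called higher in CH (45.0%) and 6 lower (2.31%). Whether such differences in the make-up of the leaves had a part in the values below was not tested, and in whole leaves fewer cells of a type and less RNA per cell cannot be told apart. A difference below compares these 2 libraries and not the conditions, since there was no replicate, and 95% intervals cover counting error only.

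Across the pathway, more members were lower than higher in CH. A unigene was called changed when the Audic-Claverie test, a comparison of read counts between 2 libraries, gave an adjusted p below 0.01 over all 43302 unigenes with a read and the RPKM ratio was at least 2. RPKM is the number of reads scaled to transcript length and library size, so it allows levels of different genes to be compared. By this rule CH was higher for 4 members and lower for 11, where 2.48% of all unigenes tested were called higher and 4.28% lower. Among the 78 members with at least 10 reads over both libraries the 4 were 5.13% and the 11 were 14.1%; among all unigenes with as many reads 4.54% were called higher and 7.71% lower. The other 31 members had at most 9 reads in total, and none of them was called. The median log2 ratio of CH to CK was -0.32 over the 78 members, with quartiles of -0.95 and 0.29, and -0.02 over all unigenes with at least 10 reads. The log2 ratio was below 0 for 47 members and above 0 for 31. The counting interval of the ratio lay wholly below 1 for 33, wholly above 1 for 18 and held 1 for 27. The calls rest on counting error: with edgeR's exact test and an assumed spread between plant pools of 0.2 (coefficient of variation), 0 members were higher and 4 lower, and with a spread of 0.4, or one estimated from the 2 libraries while ignoring their groups, no member was called.

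**Figure D1:**
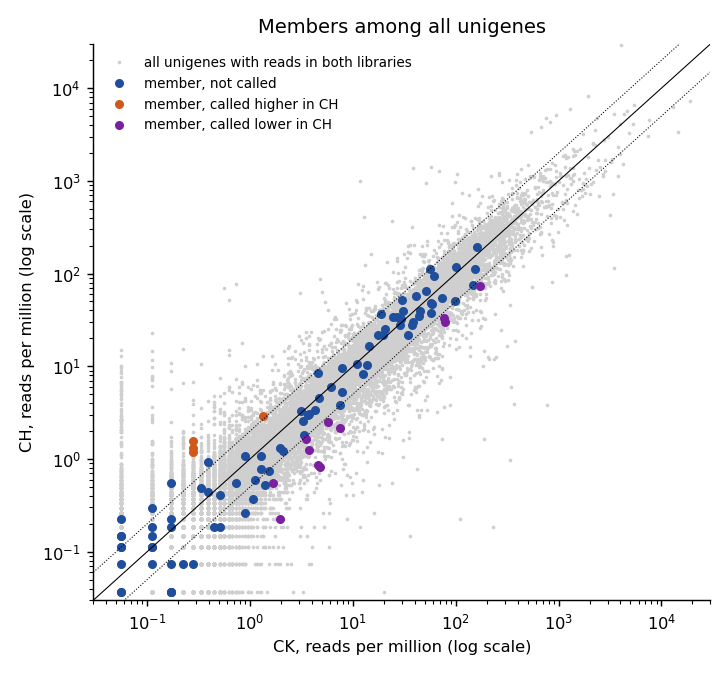
Reads per 1000000 counted in CK (horizontal) and CH (vertical), both on log scales, for every unigene with reads in both libraries (grey) and for the members (coloured by call); the solid line marks equal values and the dotted lines 2-fold differences. The 4 members called higher lie at low counts, while the 11 called lower reach from low counts up to the most abundant phenylalanine ammonia-lyase unigene.

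The entry and middle of the pathway held 6 of the 11 lower calls. Phenylalanine ammonia-lyase (PAL), cinnamate 4-hydroxylase (C4H), 4-coumarate--CoA ligase (4CL) and hydroxycinnamoyltransferase (HCT) together had 35 unigenes, 28 of them with at least 10 reads. Of these 28, 6 were called lower (21.4%) and 2 higher (7.14%). Among all unigenes with as many reads, 7.71% were called lower and 4.54% higher. Of the 6 lower calls, 3 were 4CL names. The steps were joined with earlier results of these data known, so their pooled shares are a description and not a test. The median log2 ratio of the 28 was -0.63. The summed reads of PAL were 2.23-fold lower in CH (interval 2.11 to 2.35), those of HCT 2.00-fold lower (1.91 to 2.10) and those of 4CL 1.87-fold lower (1.69 to 2.08). Those of C4H were 1.13-fold lower (1.08 to 1.17) over all 7 names, which include comp36087_c0, an RNA helicase by its Nr and KEGG hits. Over the 6 C4H unigenes with the KEGG ortholog of this enzyme they were 1.41-fold lower. Of the later steps described below, CAD was 1.27-fold lower (1.21 to 1.34), and the ratios of CCoAOMT, CCR, laccases and dirigent proteins were 0.952, 1.04, 1.11 and 0.971. With only the KEGG ortholog of the step, as for C4H, the ratios were 0.777 for CCoAOMT and 0.423 for CCR, from 1 unigene each. For CAD the ratio was then 0.800. The difference between earlier and later steps thus depends on which names are counted.

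**Figure D2:**
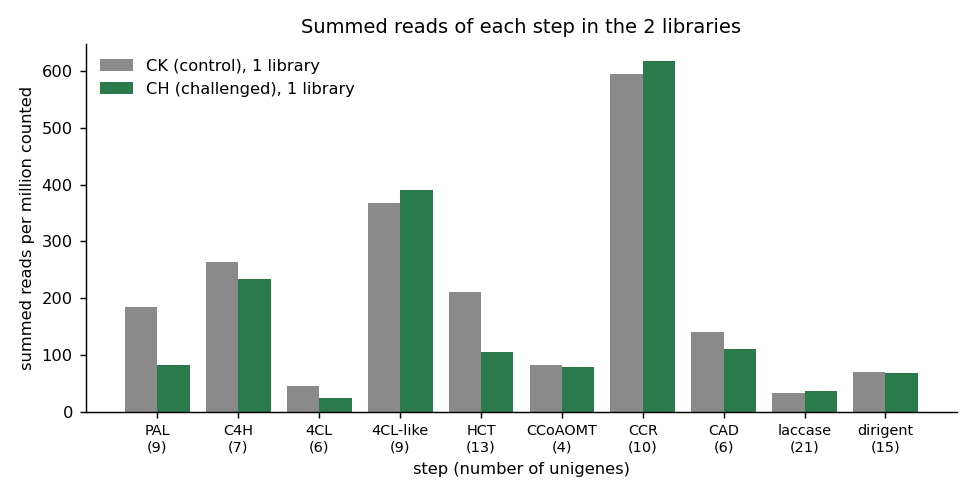
Summed reads per 1000000 counted (vertical axis, from 0) for each of 10 steps, with CK in grey and CH in green and the number of unigenes in parentheses; each bar is 1 library and has no replicate error. PAL stood at 184 and 82.6, 4CL at 44.8 and 23.9 and HCT at 212 and 106 reads per 1000000, while the cinnamoyl-CoA reductase names stood at 594 and 617.

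PAL removes ammonia from phenylalanine and so opens the pathway. One unigene, comp27757_c0, made up 94.4% of all PAL reads in CK and 89.1% in CH. It had 3091 reads in the control and 1984 after challenge, or 79.8 and 33.7 RPKM, and fell 2.36-fold (2.23 to 2.50). The other 8 PAL unigenes were far lower in level, at most 6.92 RPKM, and did not all go the same way. The rise of comp32653_c0 was from 24 to 79 reads (1.25 to 2.72 RPKM), 2.17-fold (1.36 to 3.59). That of comp31590_c0 was from 5 to 35 reads (0.41 to 1.88 RPKM), 4.63-fold (1.80 to 15.1), and its best hit in the Nr protein collection is a hypothetical protein. In the same component as comp32653_c0, comp32653_c1 had 23 and 21 reads (3.39 and 2.17 RPKM), with an interval that includes 1. How the counting shared reads between these neighbours was not tested. For comp15768_c1, the second in level, 59 reads stood against 49 (6.92 and 3.77 RPKM, 1.82-fold lower, 1.23 to 2.72) without a call. Likewise comp15768_c0 had 27 and 20 reads (2.04-fold lower, 1.10 to 3.84), and comp37157_c5 had 25 and 14 (2.70-fold lower, 1.35 to 5.62) and was called lower once unigenes under 10 reads were left out. Of the 9 PAL unigenes, 4 thus had intervals below 1, 2 above, and 3 that include 1. Without comp27757_c0 the summed PAL reads were in a CH to CK ratio of 0.864, against 0.449 with it.

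C4H, a cytochrome P450, adds the first hydroxyl group to cinnamic acid. Its main unigene, comp34547_c2, had 2770 and 3054 reads, 90.8 and 63.8 RPKM, a value 1.37-fold lower (1.30 to 1.45) and not called. A shorter unigene of the same assembly component, comp34547_c1, fell from 134 to 58 reads (13.4 to 3.81 RPKM), 3.50-fold (2.55 to 4.84). Reads of unigenes of 1 component can be shared out between them by the counting. The second by reads over both libraries, comp36087_c0, had 1777 and 3166 reads (20.8 and 24.1 RPKM, 1.18-fold higher, 1.11 to 1.25). This unigene made up 37.9% of all C4H reads in CK and 50.2% in CH. Its Nr and KEGG hits are an RNA helicase, so its C4H name is doubtful. Over the 6 C4H unigenes with the KEGG ortholog of this enzyme, reads were 1.41-fold lower in CH. Over all 7 they were 1.13-fold lower (1.08 to 1.17).

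4CL joins coenzyme A to p-coumaric acid. All 4 of its unigenes with at least 10 reads had intervals below 1. The most abundant, comp36139_c1, whose Nr hit is the hop ligase CCL1, had 610 and 581 reads (18.7 and 12.3 RPKM, 1.59-fold lower, 1.42 to 1.78) and was not called. The other 3 fell. For comp96567_c0 the reads went from 35 to 6 (6.45 to 0.72 RPKM), 8.83-fold (3.67 to 25.7). For comp25248_c0 they went from 82 to 23 (5.39 to 0.99 RPKM), 5.40-fold (3.36 to 8.98). For comp34531_c0 they went from 67 to 34 (3.35 to 1.12 RPKM), 2.98-fold (1.95 to 4.65). All 4 carry the KEGG ortholog of the enzyme. The Nr hit of both comp96567_c0 and comp25248_c0 is a putative AMP dependent CoA ligase of Ricinus communis, which does not name the step. These 2 are 397 and 948 bp long, and whether they are parts of 1 gene was not tested. Without comp36139_c1 the summed 4CL ratio was 0.225, against 0.534 with it.

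HCT links p-coumaroyl-CoA to shikimate or quinate, the step that leads towards lignin and chlorogenic acid. The 2 leading unigenes were both lower in CH. The first, comp38657_c0, with the KEGG ortholog of the enzyme, had 1759 and 1379 reads (60.1 and 31.0 RPKM, 1.93-fold lower, 1.80 to 2.07), just short of the 2-fold limit. The second, comp32550_c1, fell from 1403 to 806 reads (49.7 to 18.8 RPKM), 2.63-fold (2.41 to 2.88). It has no KEGG ortholog and a hypothetical protein as its Nr hit. Of the remaining 11 HCT names none was called, the highest stood at 7.41 RPKM, and comp36532_c0 (134 and 102 reads) was 1.99-fold lower. The 3 unigenes comp34419_c0, c1 and c2 are of 1 component and held 6 and 13, 56 and 88, and 65 and 80 reads, each with an interval that includes 1.

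Beside these ligases stood 9 unigenes named 4-coumarate--CoA ligase-like, relatives that in Arabidopsis include enzymes of other acids, and these went both ways. The interval lay above 1 for 5 and below 1 for 3 of the 8 with at least 10 reads. The best hit of comp29721_c0 is 4-coumarate--CoA ligase-like 5, and its KEGG ortholog is the peroxisomal ligase of jasmonate synthesis, known in Arabidopsis as OPC-8:0 CoA ligase. Its reads numbered 996 in CK and 2985 in CH, 26.0 and 51.3 RPKM. At 1.98-fold higher (1.84 to 2.13) it lay just under the limit, and it was called higher under TMM scaling and under median of ratios scaling. Conversely comp36240_c3, named 4-coumarate--CoA ligase-like 10 after a protein known in Arabidopsis as an oxalyl-CoA synthetase, had 2625 and 2037 reads (72.1 and 36.9 RPKM, 1.95-fold lower, 1.84 to 2.07). The single call was comp33211_c0, ligase-like 6, which fell from 30 to 15 reads (2.10 to 0.55 RPKM), 3.03-fold (1.58 to 6.05). The summed reads of these names were in a ratio of 1.06 (1.03 to 1.09), and in a ratio of 1.43 without comp36240_c3.

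Caffeoyl-CoA O-methyltransferase (CCoAOMT) adds a methyl group on the way to guaiacyl lignin. Of its 4 unigenes none was called. The leader, comp25609_c0, with a Boehmeria nivea CCoAOMT as Nr hit, had 688 and 809 reads (42.8 and 33.1 RPKM, 1.29-fold lower, 1.16 to 1.43). The next, comp34112_c0, named after a probable CCoAOMT of Arabidopsis, had 526 and 863 reads (27.2 and 30.1 RPKM, 1.08-fold higher, 0.972 to 1.21).

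Cinnamoyl-CoA reductase (CCR) makes the aldehydes from which monolignols are formed. All 10 CCR names had at least 10 reads, and they divided, with 6 intervals above 1 and 4 below. Only comp29672_c0 carried the KEGG ortholog of CCR, with a rubber tree CCR as Nr hit. Its reads went from 1379 to 883 (52.4 and 22.2 RPKM) and fell 2.36-fold (2.17 to 2.57), the only call in the group. The member of highest level in the whole set was comp39553_c0, named after CCR 2 but with a hypothetical protein as Nr hit, at 2884 and 5251 reads (124 and 148 RPKM, 1.20-fold higher, 1.15 to 1.26). Next to it, comp37886_c0 had 915 and 1738 reads (41.4 and 51.8 RPKM, 1.26-fold higher, 1.16 to 1.36). The Nr hits of comp37886_c0, comp30523_c1, comp36966_c0 and comp36129_c0 are dihydroflavonol reductases, enzymes of the flavonoid branch in the same protein family, and that of comp32930_c0 is a phenylacetaldehyde reductase. Of these, comp36129_c0 had 337 and 990 reads (15.2 and 29.5 RPKM), 1.94-fold higher (1.71 to 2.20), and was called under TMM and median of ratios scaling. The near-equal sum of this step (ratio 1.04) thus covers unigenes of doubtful name.

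Cinnamyl alcohol dehydrogenase (CAD) reduces the aldehydes to monolignols. None of its 6 unigenes was called. The leader comp35270_c0, CAD 9 by name, had 1308 and 1457 reads (55.0 and 40.4 RPKM, 1.36-fold lower, 1.26 to 1.46), and it alone among the members carried the GO term for defense response to insect. The second, comp37114_c1, had 665 and 751 reads (30.5 and 22.3 RPKM, 1.34-fold lower, 1.21 to 1.49). The third, comp33290_c0, had 509 and 742 reads (21.9 and 21.0 RPKM), and its interval includes 1. The summed reads of CAD were 1.27-fold lower (1.21 to 1.34).

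**Figure D3:**
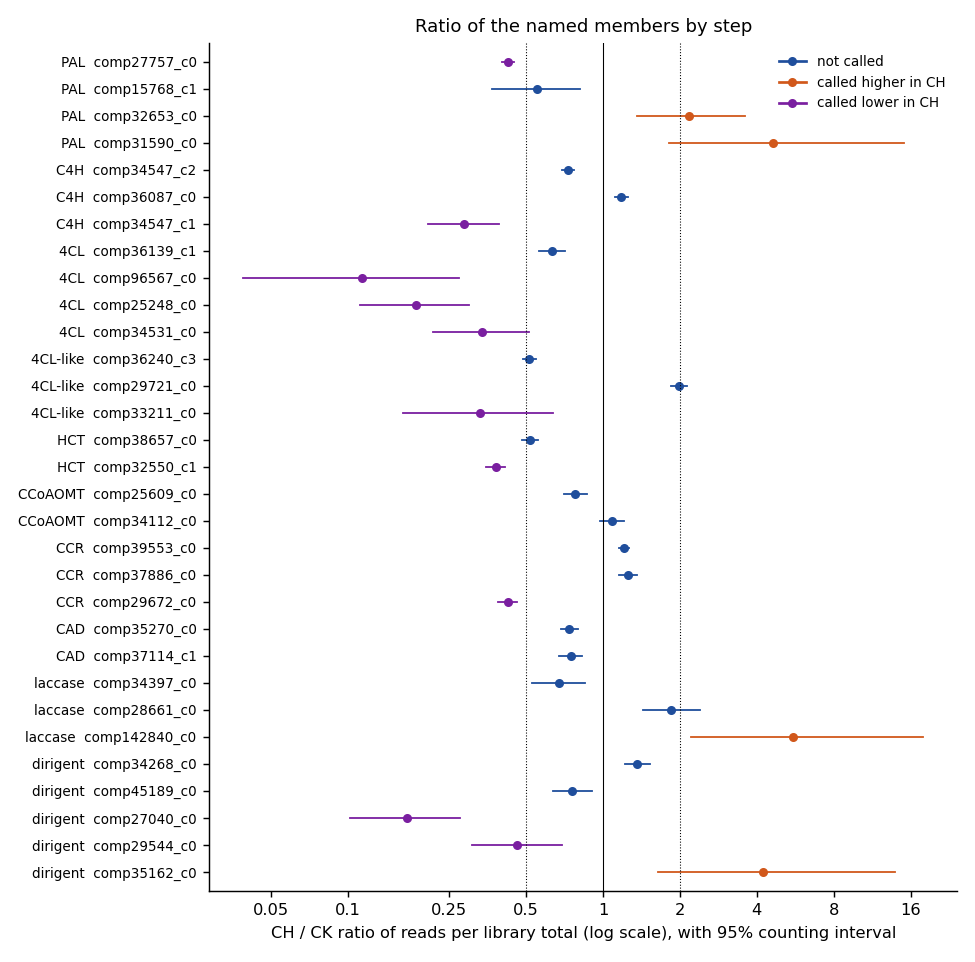
Ratio of reads per library total, CH to CK (horizontal log scale), with 95% counting intervals for 31 members named by rule, ordered by step; dotted lines mark 2-fold. All 4 ligases of 4CL lie left of 1, with comp96567_c0 at 0.113, while comp142840_c0, a laccase, lies farthest right at 5.55.

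Laccases are secreted copper oxidases that join monolignols into lignin, with laccases 4 and 17 known for this in Arabidopsis stems. They had 21 unigenes but few reads in these leaves: 13 had fewer than 10 reads in total, and the highest level was 6.89 RPKM. That was comp34397_c0, laccase-4 by name, with 141 and 143 reads (6.89 and 4.40 RPKM, 1.49-fold lower, 1.17 to 1.90). The 2 laccase-5 names of over 10 reads were both higher in CH. Of these, comp28661_c0 had 82 and 229 reads (3.34 and 6.14 RPKM, 1.85-fold higher, 1.43 to 2.40) and was not called, and comp142840_c0 rose from 5 to 42 reads (0.47 to 2.60 RPKM), 5.55-fold (2.20 to 18.0). The other 5 with at least 10 reads had intervals that include 1, laccase-17 (comp29837_c0, 58 and 69 reads) among them. Summed laccase reads were in a ratio of 1.11 (0.998 to 1.23).

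Dirigent proteins guide the coupling of monolignol radicals, towards lignans for example. Of 15 unigenes, 11 had at least 10 reads, and both directions were seen. The highest by reads, comp34268_c0, is dirigent protein 23 by name but thaumatin-like by Nr hit, and had 440 and 907 reads (15.6 and 20.6 RPKM, 1.36-fold higher, 1.21 to 1.53). Next came comp45189_c0, dirigent protein 19, with 245 and 281 reads (20.6 and 15.5 RPKM, 1.32-fold lower, 1.11 to 1.57). A dirigent protein 21, comp27040_c0, fell from 85 to 22 reads (6.63 to 1.13 RPKM), 5.85-fold (3.62 to 9.82), and a second dirigent protein 19, comp29544_c0, from 63 to 44 reads (5.30 to 2.43 RPKM), 2.17-fold (1.45 to 3.26). In the other direction comp35162_c0, named after dirigent protein 5, which in Arabidopsis directs pinoresinol formation, rose from 5 to 32 reads (0.52 to 2.19 RPKM), 4.23-fold (1.64 to 13.9). The summed reads of the family were in a ratio of 0.971 (0.903 to 1.04).

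The members differed in how well their names hold. The Nr hit named the same step for 59 of 109, and 34 carried the KEGG ortholog of their step. Of these 34, 28 had at least 10 reads; 1 of the 28 was called higher (comp32653_c0) and 6 lower, which is 21.4%, and their median log2 ratio was -0.62. Their summed reads were 1.62-fold lower in CH, against 1.14-fold for all 109. The best hits of 4 members, 2 named dirigent protein and 2 CAD, are fungal or algal, and these had 13 reads in CK and 24 in CH. In 11 assembly components there was more than 1 member, 25 members in all, so that neighbouring unigenes such as comp34547_c1 and c2 may be parts of 1 gene. Several GO terms were looked at, and their shares differed. The term for response to wounding was attached to 39 members, of which 28 had at least 10 reads. Of these 0 were called higher and 5 lower (17.9%), against 4.54% and 7.71% of all unigenes with as many reads. The summed ratio of the 39 was 0.955. The term for lignin biosynthetic process was attached to 54 members, 36 of them with at least 10 reads. Of these 1 was called higher (2.78%) and 3 lower (8.33%), near the shares of all unigenes.

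The shikimate pathway and the route to phenylalanine, which supply its substrate, had 36 unigenes, 27 of them with at least 10 reads. Of these 0 were called higher and 1 lower, against 4.54% and 7.71% of all unigenes with as many reads, a count too small to set apart from those shares. The median log2 ratio was -0.12. The one was comp30709_c0, arogenate dehydratase 1, which makes phenylalanine and fell from 159 to 108 reads (5.05 to 2.23 RPKM), 2.23-fold (1.73 to 2.87). Another arogenate dehydratase, comp37767_c0, had 484 and 1038 reads (1.42-fold higher, 1.27 to 1.58), and the entry enzyme DAHP synthase (comp16132_c0) 2533 and 5159 reads (1.35-fold higher, 1.28 to 1.41). The P450 that adds the next hydroxyl group after HCT (comp33729_c0, CYP98A) had 203 and 212 reads (6.43 and 4.43 RPKM, 1.45-fold lower, 1.19 to 1.77). No unigene was named caffeoylshikimate esterase. Neither of the abundant P450 reductases, which pass electrons to these P450s, was called: comp33763_c1 had 2756 and 5511 reads, and comp38071_c0 3238 and 4882.

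A peroxidase and a group of F-box proteins around the pathway stood apart by size. The lignin-forming anionic peroxidase comp32955_c0, named after a tobacco enzyme, had 7725 reads in the control and 36287 after challenge, at levels of 320 and 991 RPKM, and rose 3.10-fold (3.03 to 3.18). In both libraries its RPKM exceeded that of every member. F-box/kelch-repeat proteins of this kind in Arabidopsis mark PAL for breakdown. Of 6 unigenes named after the Arabidopsis loci with this role, 4 had at least 10 reads, and 3 of the 4 rose. These were comp39109_c1 with 874 and 3566 reads (76.3 and 205 RPKM, 2.70-fold, 2.50 to 2.91), comp39109_c2 with 570 and 2406 reads (49.8 and 138 RPKM, 2.79-fold, 2.54 to 3.06) and comp37420_c0 with 488 and 1598 reads (23.9 and 50.9 RPKM, 2.16-fold, 1.95 to 2.40). The fourth, comp29546_c0, had 2706 and 7243 reads (121 and 214 RPKM, 1.77-fold higher, 1.69 to 1.85). All 4 had intervals above 1. That role concerns PAL protein, which was not measured here. Among the 4, comp39109_c1 and comp39109_c2 share a component. The locus names of this group were written down after its values had been seen.

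Branches and regulators went both ways. Chalcone synthase, the entry to flavonoids, had 287 and 668 reads in its main unigene comp39246_c0 (11.6 and 18.3 RPKM, 1.54-fold higher, 1.34 to 1.77) and was not called. Among 8 names linked with lignan synthesis, the 3 calls were all isoflavone reductase homologs, whose substrates are not known from their names. Of these comp34767_c0 fell from 276 to 163 reads, 2.56-fold (2.10 to 3.13), comp30316_c0 fell from 85 to 61 reads, 2.11-fold (1.50 to 2.98), and comp28069_c1 rose from 18 to 73 reads, 2.68-fold (1.58 to 4.77). The pinoresinol-lariciresinol reductase comp34624_c0 had 187 and 383 reads (1.35-fold higher, 1.13 to 1.62). Of 10 MYB factors listed as regulators, 8 had at least 10 reads and none of the 8 was called. The interval lay below 1 for 3 of the 8, above 1 for 1 and included 1 for 4. The most abundant, comp29760_c1, had 281 and 316 reads (34.4 and 25.3 RPKM, 1.35-fold lower, 1.14 to 1.59). Next in reads, comp32480_c0, named after Myb4, had 136 and 114 reads (1.81-fold lower, 1.40 to 2.34). In the other direction comp253228_c0 had 2 and 18 reads (5.95-fold higher, 1.42 to 52.8), the largest ratio of the 8. It is named after the same Myb-related protein as comp29760_c1. A further Myb4 name, comp409333_c0, with 7 reads in CK and 0 in CH, passed the rule for a lower call. Of 3 monolignol glucoside names the only one with at least 10 reads, beta-glucosidase 45 (comp37100_c2), had 219 and 225 reads (1.47-fold lower, 1.22 to 1.78).

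Xylem, where lignin is laid down, was little represented. The 22 unigenes with names of secondary wall cellulose synthases, xylem proteinases and their regulators had 467 and 584 reads, none above 5.67 RPKM, and 2 had no read in CK and 3 none in CH. Of 14 with at least 10 reads, 0 were called higher and 1 lower, and their median log2 ratio was -0.61. The secondary wall synthase CESA7 (comp36420_c0) had 100 and 139 reads, with an interval that includes 1. The 1 lower call is 7.14% of the 14, against 7.71% of all unigenes with as many reads, and 10 of the 14 intervals include 1. The median log2 ratio of the leaf markers was -0.66, with the calls given above. The part of either list in the values of PAL, 4CL and HCT was not tested.

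**Figure D4:**
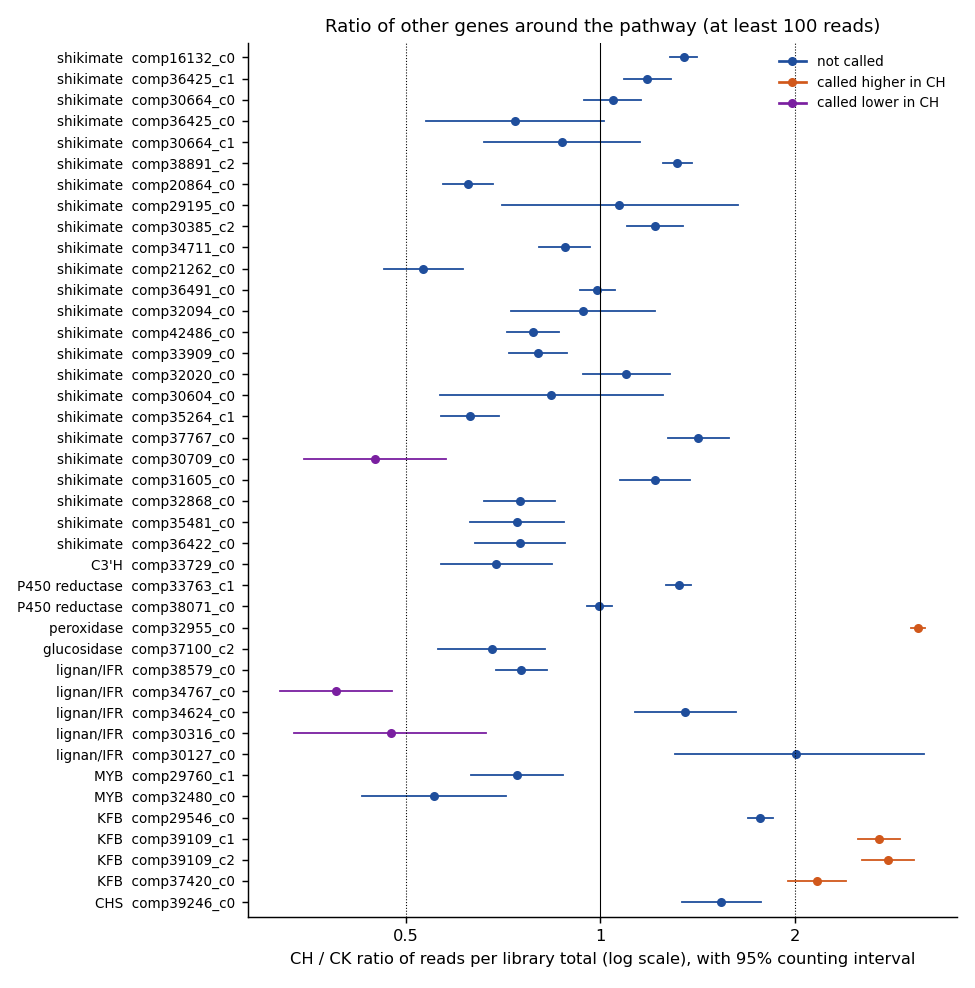
Ratio of reads per library total, CH to CK (horizontal log scale), with 95% counting intervals for 41 unigenes of the neighbouring groups with at least 100 reads; dotted lines mark 2-fold. The peroxidase comp32955_c0 lies farthest right at 3.10, 3 of the 4 F-box/kelch-repeat (KFB) unigenes lie beyond 2-fold, and the shikimate pathway unigenes, all but comp30709_c0, lie between the dotted lines.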

How the data were processed

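Estimated counts and RPKM per unigene were deposited by the authors, 1 table per library, with an annotation table of Swiss-Prot, Nr, KEGG and GO hits. The authors assembled clean reads of both libraries with Trinity (K-mer length 25) and annotated unigenes by BLASTx; neither counting program nor strand setting was given in the sources used here. For differential expression, the paper's methods name DESeq, while its results name the algorithm of Audic and Claverie. Estimated counts were rounded to whole reads. Each unigene with at least 1 read was tested with the 2-sided Audic-Claverie test, with Benjamini-Hochberg adjustment, and called where the adjusted p was under 0.01 and RPKM differed by at least 2 times. A library with 0 reads passed the fold limit. Ratios of reads per library total carry exact Clopper-Pearson 95% intervals. The members and lists were chosen with earlier results of these data known. Named were the 2 members of highest RPKM in each step and up to 4 called members per step and direction; further unigenes were named after their values were seen. The values of 1 group are not reported here, but its members stay in the totals. Alternatives used edgeR 4.0.16 and DESeq2 1.42.0 (size factors) in R 4.3.3; the rest ran in Python 3.11.15 with scipy 1.17.1. The test was checked on simulated counts with counting error only, so the check does not cover false calls from spread between plant pools.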

Additional observations from a re-analysis of the deposited data

How the results depend on the processing

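No paired analysis was possible because each group has 1 library, and no replicate could be left out. Counts of called members are given as higher and lower in CH, against 4 and 11. They were 4 and 11 with an exact binomial test or a pseudocount of 0.1, 6 and 11 with TMM or median of ratios scaling, 4 and 12 with at least 10 reads over both libraries, and 3 and 9 with a pseudocount of 1. They were 0 and 4 with edgeR at a coefficient of variation of 0.2, and 0 and 0 at 0.4 or at the estimate of 0.325 blind to the groups, where all unigenes gave 495 and 579, 134 and 52, and 214 and 119 calls. With at least 10 reads in each library 1 was called higher, which removes by construction the unigenes with 5 reads in CK, and 11 lower, 10 of them shared. At least 4-fold left 3 and 3, an adjusted p below 0.001 left 1 and 10, and members whose Nr hit names the step 2 and 5. Of the 31 members named by rule and shown, 14 were called, and 10 of these 14 lost their call with edgeR at 0.2. At 0.4 or at the blind estimate, all 14 lost it. The sign of the log2 ratios of the 31 was no test. Another test or threshold leaves the ratio as it is, and a pseudocount cannot reverse it. Rescaling moved it by at most 0.078.

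Ratios of summed reads moved beyond their counting interval as follows. With TMM they were 1.10 for 4CL-like and 1.08 for CCR; with median of ratios 0.474 for PAL, 0.937 for C4H, 1.12 for 4CL-like, 0.527 for HCT, 1.10 for CCR and 0.829 for CAD. As summed RPKM they were 0.481 for PAL, 0.749 for C4H, 0.432 for 4CL, 0.542 for HCT and 0.884 for dirigent proteins. Without the most abundant unigene they were 0.864 for PAL, 1.12 for C4H, 0.225 for 4CL, 1.43 for 4CL-like, 1.10 for CCoAOMT, 0.977 for CCR, 0.840 for CAD and 0.760 for dirigent proteins. With only the KEGG ortholog of the step, an alternative chosen after seeing the data, they were 0.711 for C4H, 1.26 for 4CL-like, 0.557 for HCT, 0.777 for CCoAOMT and 0.423 for CCR. The summed ratio thus passed 1 for C4H, CCoAOMT and CCR without the most abundant unigene and for CCR with the KEGG ortholog only, as it did, within its interval, for CCoAOMT with median of ratios (1.00) and for dirigent proteins with TMM (1.01) and median of ratios (1.02). Depth limits the laccases most, since 13 of 21 had fewer than 10 reads.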

Other observations

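Ferulate 5-hydroxylase, the P450 that leads to syringyl lignin, had no member by name, but 5 unigenes had a Swiss-Prot hit of its family, cytochrome P450 84A1. The one with the KEGG ortholog of the enzyme, comp31154_c0, had 367 and 296 reads in the control and challenged libraries (12.9 and 6.84 RPKM, 1.88-fold lower, 1.61 to 2.19). The most abundant, comp38437_c0, had 886 and 1872 reads (28.5 and 39.6 RPKM, 1.40-fold higher, 1.29 to 1.51), and comp35929_c0 had 454 and 651 reads, with an interval that includes 1. None of the 5 was called, and the values of the family lay on both sides of 1.

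Several unigenes reached the pathway only through their Nr or KEGG hit. With the KEGG ortholog of CCoAOMT but a flavonoid methyltransferase as Swiss-Prot hit, comp16072_c0 had 229 and 387 reads (14.5 and 16.1 RPKM, 1.12-fold higher, 0.946 to 1.32). The probable mannitol dehydrogenase comp36282_c0, of the same enzyme family as CAD, had 543 and 1324 reads (23.6 and 38.0 RPKM, 1.61-fold higher, 1.46 to 1.78). Of the 10 such unigenes, 4 had at least 10 reads and none was called.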
